A study of Mus musculus with 10 samples.

Results

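The TAM receptors and their ligands were followed in mouse microglia: the receptor tyrosine kinases Axl and Mertk, and the bridging ligands Gas6 and Pros1. These 4 genes were chosen by name, for their role in the uptake of dying cells, out of the 18292 gene symbols listed for the study, and all 4 were listed in all 10 libraries and entered the test. Microglia of C57BL/6 mice were sorted as live CD11b+ cells with intermediate CD45 and profiled with the 10x Genomics 3' protocol, which counts unique molecular identifiers (UMIs) per gene and cell. There were 5 groups of 2 libraries each: microglia isolated directly from adult brain, microglia from flat mixed glial cultures kept for 3 weeks (in vitro), and microglia from organotypic brain slices after 1 day, 1 week or 3 weeks in culture. The labels give no stimulus and no altered allele for any group. By the study's methods, the slice medium received the growth factor hPDGF at every change, which is not listed for the mixed glial medium, and in vitro microglia were collected from the culture medium. The slices came from early postnatal pups and the mixed glial cultures from cortices of newborn mice, whereas the reference was adult, so age and culture cannot be told apart in any comparison with adult microglia.

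Dying cells expose phosphatidylserine on their outer membrane, and Gas6 and protein S (encoded by Pros1) bind this lipid and a TAM receptor at the same time. Mertk is the receptor that resting macrophages are known to use for clearing apoptotic cells, while Axl is known to be induced by inflammatory signals and interferon. The receptors also dampen cytokine signalling, Tyro3 is the remaining member of the receptor family, and Gas6 can activate all of the receptors while protein S is known as a ligand of Tyro3 and Mertk.

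Each library held 61 to 3799 cells after filtering and 385373 to 39689540 UMIs in all, fewest in slice 1 week, and the median cell had 1858 and 3257 UMIs in the adult libraries and 5266 to 13966 in the cultures. The microglial markers P2ry12 and Tmem119 were detected in every library. P2ry12 was at 7148 and 8449 CPM (UMI counts scaled to the same total in each library) in adult, 967 and 786 in slice 3 weeks, 399 and 407 in slice 1 week, 162 and 78.3 in slice 1 day and 55.04 and 38.2 in vitro, and Tmem119 ran from 2932 and 3047 CPM in adult to 45.9 and 21.2 in vitro. Neutrophil markers (10 genes) summed to 7762 and 22520 CPM in slice 1 day and to 955 and 40352 CPM in slice 1 week, against at most 8.39 CPM elsewhere. Cells with over 5% of their UMIs from these markers made up 10.8% and 10.4% of the slice 1 day libraries, 15.5% and 1.64% of the slice 1 week libraries and 0 cells elsewhere. Border macrophage markers (5 genes, among them Mrc1) marked 16.8% and 15.4% of in vitro cells and at most 3.28% in any other library. Most of the in vitro signal was Mrc1 (350.8 and 306.4 CPM), with Cd163 at 0.736 and 1.11 CPM and Lyve1 at 0.648 and 0.277. In slice 1 day, Cd163 was at 2.18 and 1.57 CPM and Lyve1 at 4.64 and 6.19. These markers thus do not settle whether the marked in vitro cells were border macrophages. Of the cell barcodes, 218 occurred in more than 1 library, with at most 21 shared by any pair.

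The 4 genes lie on 4 chromosomes of the mouse genome (GRCm38, GENCODE vM21 annotation). Axl spans chr7:25757273-25788705 on the minus strand, Mertk chr2:128698956-128802894 on the plus strand, Gas6 chr8:13465374-13494490 on the minus strand and Pros1 chr16:62854307-62929346 on the plus strand. All 4 were found in the RefSeq promoter table (GRCm38.p6), and the 250 bases before each start are shown because Axl and Gas6 were called in 1 direction and Mertk and Pros1 in the other in the comparisons with adult microglia. Each is written 5' to 3' along the gene's own strand with motif matches in capitals, for Axl chr7:25788734-25788983, for Mertk chr2:128698665-128698914, for Gas6 chr8:13494536-13494785 and for Pros1 chr16:62854057-62854306.
Axl promoter: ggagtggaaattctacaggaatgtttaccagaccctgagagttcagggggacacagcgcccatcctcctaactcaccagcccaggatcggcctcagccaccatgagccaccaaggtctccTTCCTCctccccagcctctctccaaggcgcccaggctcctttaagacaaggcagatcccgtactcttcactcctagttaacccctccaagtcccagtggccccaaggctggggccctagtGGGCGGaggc
Mertk promoter: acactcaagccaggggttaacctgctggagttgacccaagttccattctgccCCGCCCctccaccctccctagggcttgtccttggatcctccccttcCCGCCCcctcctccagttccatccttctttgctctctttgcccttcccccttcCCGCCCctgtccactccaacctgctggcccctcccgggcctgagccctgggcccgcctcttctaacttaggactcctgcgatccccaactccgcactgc
Gas6 promoter: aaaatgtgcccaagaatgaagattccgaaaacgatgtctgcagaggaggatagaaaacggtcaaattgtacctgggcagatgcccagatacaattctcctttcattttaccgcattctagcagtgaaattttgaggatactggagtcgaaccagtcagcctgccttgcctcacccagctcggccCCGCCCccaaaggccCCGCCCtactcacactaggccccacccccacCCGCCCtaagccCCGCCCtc
Pros1 promoter: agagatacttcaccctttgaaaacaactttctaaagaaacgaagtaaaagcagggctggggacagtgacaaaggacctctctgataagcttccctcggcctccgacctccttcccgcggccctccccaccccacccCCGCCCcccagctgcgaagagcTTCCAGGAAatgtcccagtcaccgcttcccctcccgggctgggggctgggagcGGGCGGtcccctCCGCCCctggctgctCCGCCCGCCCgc

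On either strand, 6 motifs were searched: the GC box GGGCGG, the AP-1 site TGANTCA, the PU.1 site GAGGAA, the STAT site TTCNNNGAA, the E-box CACGTG and the LXR site AGGTCA. The Axl promoter held 1 GC box, beginning 10 bases before the start, and 1 PU.1 match on the reverse strand (read as TTCCTC above) 130 bases before it. Mertk had 3 GC boxes on the reverse strand, Gas6 had 4 on the reverse strand, and Pros1 had 5, of which the last pair overlapped, as well as 1 STAT match 92 bases before the start. Among 32851 mouse promoters of the same length, 32.7% held a GC box, 23.3% the PU.1 letters, 7.02% the STAT letters, 6.75% the AP-1 letters, 6.02% the E-box and 14.0% the LXR letters. The G and C content was 60% for Axl, 63.6% for Mertk, 54.8% for Gas6 and 64.4% for Pros1, against a median of 52.4% over all promoters. No AP-1, E-box or LXR match was found in these 4 windows, which says only that those letters were not there.

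Axl rose in all 4 cultures. Its level, in CPM after edgeR's TMM scaling, was 4.76 and 1.80 in the adult libraries (65 and 14 UMIs in all), 16.8 and 15.8 in slice 1 day, 104.7 and 115.1 in slice 1 week, 38.3 and 81.6 in slice 3 weeks and 49.2 and 33.7 in vitro. Both adult libraries lay below all 8 culture libraries, and both slice 1 week libraries lay above the rest. The fitted increase over adult was 30.9-fold in slice 1 week (log2 fold change 4.95 ± 0.48, SE, adjusted p = 6.48e-05) and 17.2-fold in slice 3 weeks (4.10 ± 0.43, adjusted p = 6.89e-05). In vitro it was 11.8-fold (3.56 ± 0.43, adjusted p = 5.56e-05), and in slice 1 day it was 4.60-fold (2.20 ± 0.45, adjusted p = 0.00210). Over all alternatives given below, the log2 value ran from 4.50 to 6.09 in slice 1 week and from 3.48 to 5.49 in slice 3 weeks. It ran from 3.12 to 5.66 in vitro and from 1.76 to 3.69 in slice 1 day. A gene was called when its Benjamini-Hochberg adjusted p in edgeR's quasi-likelihood test, taken over 12157 genes, was under 0.05 and its change exceeded 1.5-fold.

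Mertk went the other way. Its level was 150.8 and 119.6 CPM in the adult libraries, 27.3 and 18.8 in slice 1 day, 50.4 and 87.0 in slice 1 week, 82.0 and 127.6 in slice 3 weeks, and 41.2 and 32.8 in vitro. The slice 1 day libraries were lowest of all, and slice 3 weeks replicate 2 lay between the adult libraries. Relative to adult, Mertk fell by 2.58 ± 0.29 on the log2 scale in slice 1 day (SE, adjusted p = 5.05e-05), a 6.00-fold decrease, and fell by 1.87 ± 0.27 in vitro (adjusted p = 2.04e-04). In slice 1 week it fell by 1.07 ± 0.32 (adjusted p = 0.0284), from 51 and 34 UMIs in the slice 1 week libraries. In slice 3 weeks the difference was −0.36 ± 0.26 (adjusted p = 0.300) and was not called. The slice 1 week call rested on single libraries: without adult replicate 1 the value was −0.85 (adjusted p = 0.131), and without slice 1 week replicate 1 it was −0.61 (adjusted p = 0.396).

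Tyro3, the remaining receptor, could not be tested. It had 1 and 0 UMIs in the adult libraries, 1 and 1 in slice 1 day, 0 and 1 in slice 1 week, 1 and 2 in slice 3 weeks and 0 and 1 in vitro, so no difference was detectable at this depth.

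Of the ligands, Gas6 was higher in 3 of the 4 cultures. It was measured at 202.6 and 179.5 CPM in adult, 229.6 and 271.3 in slice 1 day, 380.4 and 386.4 in slice 1 week, 661.2 and 482.6 in slice 3 weeks, and 460.6 and 531.8 in vitro. All culture libraries lay above both adult libraries, those of slice 1 day by least. Gas6 rose 2.99-fold in slice 3 weeks (log2 fold change 1.58 ± 0.18, SE, adjusted p = 1.15e-04), 2.60-fold in vitro (1.38 ± 0.18, adjusted p = 1.08e-04) and 2.01-fold in slice 1 week (1.00 ± 0.19, adjusted p = 0.00259). The slice 1 day value of 0.39 ± 0.18 did not pass the threshold (adjusted p = 0.0875).

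Pros1 was lower than in adult microglia in every culture. The adult libraries gave 267.9 and 305.2 CPM, slice 1 day 94.6 and 88.9, slice 1 week 104.7 and 112.6, slice 3 weeks 205.3 and 162.6, and in vitro 32.3 and 28.5. No culture library reached the adult range, and the in vitro libraries were lowest. The decrease was 9.43-fold in vitro, where Pros1 fell by 3.24 ± 0.17 on the log2 scale (SE, adjusted p = 2.12e-07), 3.12-fold in slice 1 day (adjusted p = 1.92e-05) and 2.65-fold in slice 1 week (adjusted p = 2.42e-04). In slice 3 weeks it was 1.56-fold (log2 fold change −0.64 ± 0.15, adjusted p = 0.00785), close to the limit of 1.5-fold. Without adult replicate 2 that value was −0.55 (adjusted p = 0.0566), without slice 3 weeks replicate 2 it was −0.42 (adjusted p = 0.0804), and without slice 1 day replicate 2 it was −0.57, under the fold limit. Leaving out that library, which is in neither group, moved the median of all genes in this comparison by 0.062.

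**Figure D1:**
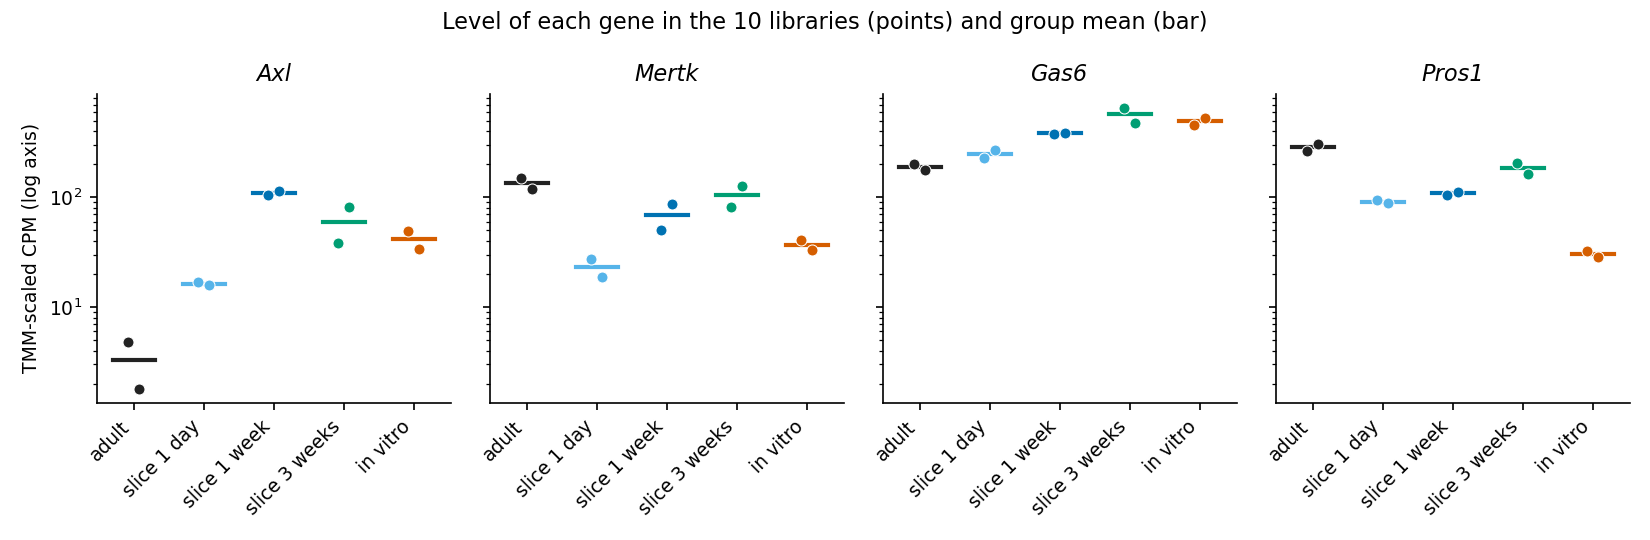
TMM-scaled level of each gene (CPM, 1 panel per gene) in each of the 10 libraries, shown as points, with a bar at the mean of each group of 2. Axl is lowest in adult and highest in slice 1 week (mean 109.9 CPM), Mertk is lowest in slice 1 day (23.0 CPM), Gas6 is highest in slice 3 weeks (571.9 CPM) and Pros1 is highest in adult (286.6 CPM).

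Counted over the 4 genes, in vitro culture gave 2 calls higher and 2 lower, where 50.8% of all tested genes were called (22.4% higher and 28.5% lower). Slice 1 day gave 1 higher, 2 lower and 1 not called against 50.2% of all genes (24.9% higher, 25.3% lower). Slice 1 week gave 2 higher and 2 lower against 28.6% (15.0% higher, 13.6% lower), and slice 3 weeks gave 2 higher, 1 lower and 1 not called against 35.4% (17.9% higher, 17.5% lower). These 4 comparisons share the adult libraries, so their directions are not independent of each other. The median log2 fold change over all tested genes was −0.11 in vitro, −0.06 in slice 1 day, −0.08 in slice 1 week and −0.03 in slice 3 weeks.

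**Figure D2:**
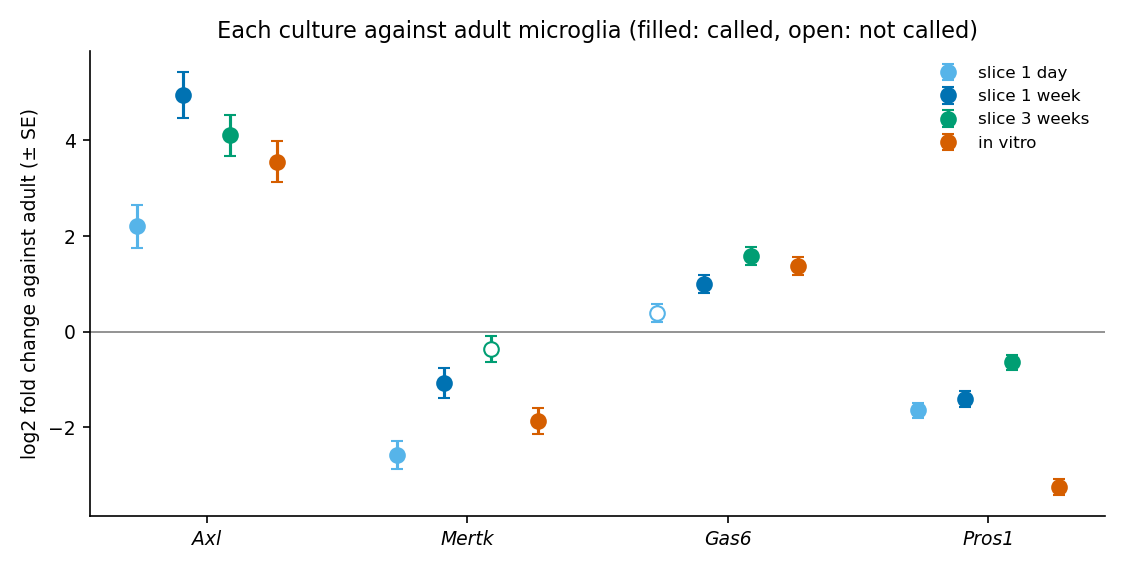
Fitted log2 fold change of each culture against adult for Axl, Mertk, Gas6 and Pros1, with error bars of 1 SE. Filled points passed the threshold and open points did not, which were Mertk in slice 3 weeks (−0.36) and Gas6 in slice 1 day (0.39).

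Within the slices, all 4 genes rose between 1 day and 3 weeks of culture, where 26.7% of all genes were called (13.9% higher and 12.8% lower). Mertk increased 4.66-fold (log2 fold change 2.22 ± 0.29, SE, adjusted p = 5.81e-04), Axl 3.74-fold (1.90 ± 0.38, adjusted p = 0.00491), Gas6 2.28-fold (1.19 ± 0.18, adjusted p = 0.00123) and Pros1 2.00-fold (1.00 ± 0.16, adjusted p = 0.00143). The libraries of these groups did not overlap for any of the 4 genes, and the share of all genes without overlap was not counted. Without slice 1 day replicate 2, the Axl call was lost (1.86, adjusted p = 0.0533). As UMIs per cell with no scaling for depth, the increases of Axl (1.40) and Mertk (1.76) were still called, and those of Gas6 (0.75) and Pros1 (0.57) were not. Slice 3 weeks replicate 1 carries another study id than the slice 1 day libraries.

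From 1 day to 1 week, the receptors rose, but the Mertk call was lost when every cell was thinned at random to 1800 UMIs (1.03, adjusted p = 0.322). Axl increased 6.72-fold (adjusted p = 0.00503) and Mertk 2.86-fold (adjusted p = 0.0209), 2 of 4 genes where 10.2% of all genes were called (4.91% higher and 5.25% lower), whereas Gas6 had a log2 fold change of 0.61 (adjusted p = 0.0609) and Pros1 of 0.24 (adjusted p = 0.435). Gas6 became a call with upper quartile scaling, with DESeq2, with study id as covariate and with the 8 libraries of the second study id (0.60 to 0.68, adjusted p from 0.0226 to 0.0480). Of these calls, Mertk was lost without slice 1 day replicate 2 (adjusted p = 0.133) and without either slice 1 week library (adjusted p = 0.0632 and 0.131), and Axl was lost without slice 1 week replicate 1 (adjusted p = 0.0635). From 1 week to 3 weeks Pros1 was the 1 gene of the 4 called, 1.70-fold higher (adjusted p = 0.0304), where 5.72% of all genes were called (2.23% higher and 3.49% lower). That call was lost without either slice 1 week library (adjusted p = 0.274 and 0.0633) and as UMIs per cell (0.68). The Axl difference over the same interval was −0.85 ± 0.40 (adjusted p = 0.256).

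The flat cultures and the slices of the same 3 weeks differed in Mertk and Pros1. In vitro, Pros1 was 6.05-fold lower than in slice 3 weeks (log2 fold change −2.60 ± 0.16, SE, adjusted p = 2.36e-06) and Mertk 2.84-fold lower (−1.51 ± 0.27, adjusted p = 0.00171), which was 2 of 4 genes where 33.2% of all genes were called (13.3% higher and 19.9% lower). For Axl the difference was −0.55 ± 0.34 (adjusted p = 0.234) and for Gas6 −0.20 ± 0.18 (adjusted p = 0.393), and neither was called. As UMIs per cell, Pros1 was still called lower in vitro (−1.54), Mertk was not (−0.41), and Gas6 was called higher (0.85). Without slice 3 weeks replicate 1, Axl was called lower in vitro (−0.89, adjusted p = 0.0232), and without slice 3 weeks replicate 2 its sign turned (0.18). Compared with slice 1 day, in vitro microglia had more Axl (2.56-fold, adjusted p = 0.0183) and Gas6 (1.98-fold, adjusted p = 0.00208) and less Pros1 (3.02-fold, adjusted p = 6.41e-05), 3 of 4 genes where 31.9% of all genes were called (13.3% higher and 18.6% lower). Compared with slice 1 week, they had less Axl (2.63-fold, adjusted p = 0.0370) and Pros1 (3.55-fold, adjusted p = 1.14e-04), 2 of 4 genes where 16.2% were called (6.20% higher and 10.0% lower). Neither of the latter calls held as UMIs per cell (−0.43 and −0.85), where Gas6 was called higher in vitro (1.36). Against slice 1 day, Mertk was also called higher per cell (1.35). The Axl calls against slice 1 day and slice 1 week were lost on leaving out single libraries: the first without in vitro replicate 1 or either slice 1 day library, the second without any single library of the in vitro, slice 1 day or slice 1 week groups (adjusted p up to 0.237).

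Ordered by level, Axl went from adult (3.28 ± 2.09 CPM, SD, n = 2) through slice 1 day (16.3 ± 0.715), in vitro (41.5 ± 10.9) and slice 3 weeks (59.9 ± 30.6) to slice 1 week (109.9 ± 7.35). The first 2 steps of that order were called, and the steps from in vitro to slice 3 weeks and from slice 3 weeks to slice 1 week were not. Pros1 went from in vitro (30.4 ± 2.70 CPM) through slice 1 day (91.8 ± 4.03), slice 1 week (108.7 ± 5.54) and slice 3 weeks (183.9 ± 30.2) to adult (286.6 ± 26.4), with every step called except that between slice 1 day and slice 1 week. For Mertk (slice 1 day 23.0 ± 6.02 CPM, in vitro 37.0 ± 5.92, slice 1 week 68.7 ± 25.9, slice 3 weeks 104.8 ± 32.3, adult 135.2 ± 22.04) no pair of neighbours differed past the threshold. The same held for Gas6 (adult 191.1 ± 16.3 CPM, slice 1 day 250.4 ± 29.5, slice 1 week 383.4 ± 4.17, in vitro 496.2 ± 50.3, slice 3 weeks 571.9 ± 126.3).

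These values are relative to all UMIs of a library, and the cultured cells held more UMIs each. Counted as UMIs per cell with no scaling for depth, which moved the median of all genes to 2.04 above adult on the log2 scale in vitro, 1.49 in slice 1 day, 1.10 in slice 1 week and 1.05 in slice 3 weeks, Axl was higher than adult by 5.66, 3.69, 6.09 and 5.09 and Gas6 by 3.53, 1.93, 2.18 and 2.68 in the same order, and all of these were called. Mertk was at 0.26 in vitro, −1.09 in slice 1 day, 0.12 in slice 1 week and 0.67 in slice 3 weeks, of which the slice 1 day decrease alone was called. Pros1 was at −1.04 in vitro, which was called, and at −0.08, −0.19 and 0.50 in the slices of 1 day, 1 week and 3 weeks, which were not. UMIs per cell mix RNA content with capture and sequencing depth, which cannot be told apart here, and the adult libraries themselves differed in UMIs of the median cell (3257 and 1858). The lower Mertk and Pros1 levels given above are shares of all UMIs. In sums over a library, fewer cells expressing a gene and less RNA per cell cannot be told apart.

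The libraries carried 2 study ids, 2 libraries with the first and 8 with the second, and adult and slice 3 weeks each had 1 library of either. Within the first id the log2 ratio of slice 3 weeks to adult was 3.01 for Axl, 1.71 for Gas6, −0.38 for Pros1 and −0.88 for Mertk. Within the second it was 5.50 for Axl, 1.43 for Gas6, −0.91 for Pros1 and 0.09 for Mertk. The direction was thus the same within both ids for 3 genes and opposite for Mertk. All in vitro, slice 1 day and slice 1 week libraries carried the second id.

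Other cell types moved with some of these groups. Without the cells over 5% neutrophil markers, Axl was at 2.26 above adult in slice 1 day and 4.97 in slice 1 week on the log2 scale, Mertk at −2.52 and −1.003, Pros1 at −1.58 and −1.36, and Gas6 at 0.46 and 1.06, with the same calls. With the planned limit of 0.5%, which also took out monocyte-like cells, the Mertk call in slice 1 week was lost (−0.99, adjusted p = 0.0753). Without border-macrophage-like cells, the in vitro values were 3.71 for Axl, −1.78 for Mertk, 1.35 for Gas6 and −3.13 for Pros1, all 4 still called. Markers of further cell types also differed between groups. Astrocyte markers (6 genes) summed to 153 and 148 CPM in adult against 5.04 to 33.8 in the cultures. The adult sum was nearly all Slc1a3 (149.97 and 147.4 CPM), a glutamate transporter, and Aqp4, the astrocyte water channel, was at 0.565 and 0 CPM. Markers of oligodendrocyte precursors (2 genes) summed to 28.9 and 39.4 CPM in slice 3 weeks and at most 0.0807 in adult, nearly all of it Cspg4, with Pdgfra at 0 or 0.269 CPM in slice 3 weeks. Myelin and vessel markers differed in opposite directions in slice 3 weeks. Oligodendrocyte markers (5 genes) ran from 39.5 to 81.6 CPM in slice 3 weeks and from 8.64 to 11.6 in adult, most of it Mbp. Endothelial markers (5 genes) summed to 32.5 and 32.8 CPM in adult and 2.78 to 5.12 in slice 3 weeks, most of it Pecam1, with Cldn5 at 0 in both groups. The remaining lists stood out in other groups. Monocyte markers (6 genes) summed to 160.3 and 186.2 CPM in slice 1 day, 0 and 149 in the slice 1 week libraries and at most 7.51 in adult, and neuron markers (5 genes) to 25.9 and 52.7 CPM in slice 1 week and at most 2.21 in adult. Erythroid markers (4 genes) reached 1846 CPM in adult replicate 1 and 3460 in slice 1 day replicate 1, against 0 and 0.734 in the other library of each group. The part of these cell types in the values of the 4 genes was not tested.

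The balance between the receptors shifted. Taking Axl and Mertk UMIs together, Axl supplied 3.06% (95% exact binomial interval 2.37 to 3.88) and 1.48% (0.814 to 2.48) in the adult libraries, 38.1% and 45.7% in slice 1 day, 67.5% and 57.0% in slice 1 week, 31.8% and 39.0% in slice 3 weeks, and 54.4% and 50.7% in vitro. All 8 culture libraries lay above both adult libraries. The mean share was 48.0% in culture and 2.27% in adult (two-sided exact permutation test of 8 against 2 libraries on the logit scale, p = 0.0444, adjusted p = 0.0444 over 2 shares), and this is the smallest p these numbers of libraries allow. The test treats the 8 culture libraries as alike, although they come from different cultures with 2 libraries each. They are not replicates of a single condition, so this p is not evidence about any single culture. Because 3' counts are not per length, such a share can be compared between libraries but does not say which receptor was more abundant.

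Between the ligands, Gas6 supplied 43.1% (41.8 to 44.3) and 37.0% (35.5 to 38.6) of Gas6 and Pros1 UMIs in adult, 70.8% and 75.3% in slice 1 day, 78.4% and 77.4% in slice 1 week, 76.3% and 74.8% in slice 3 weeks, and 93.4% and 94.9% in vitro. Again all 8 culture libraries exceeded both adult libraries, with a mean of 80.2% against 40.0% (exact permutation p = 0.0444, the smallest possible). That p has the limit given for the receptor share, as it pools unlike cultures. The slice libraries lay within 70.8% to 78.4% at all 3 times, and the in vitro libraries lay above every slice library. A share does not depend on the scaling for depth, so the shift stands also where a decrease of Mertk or Pros1 per cell was not called. Intervals cover counting error only.

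**Figure D3:**
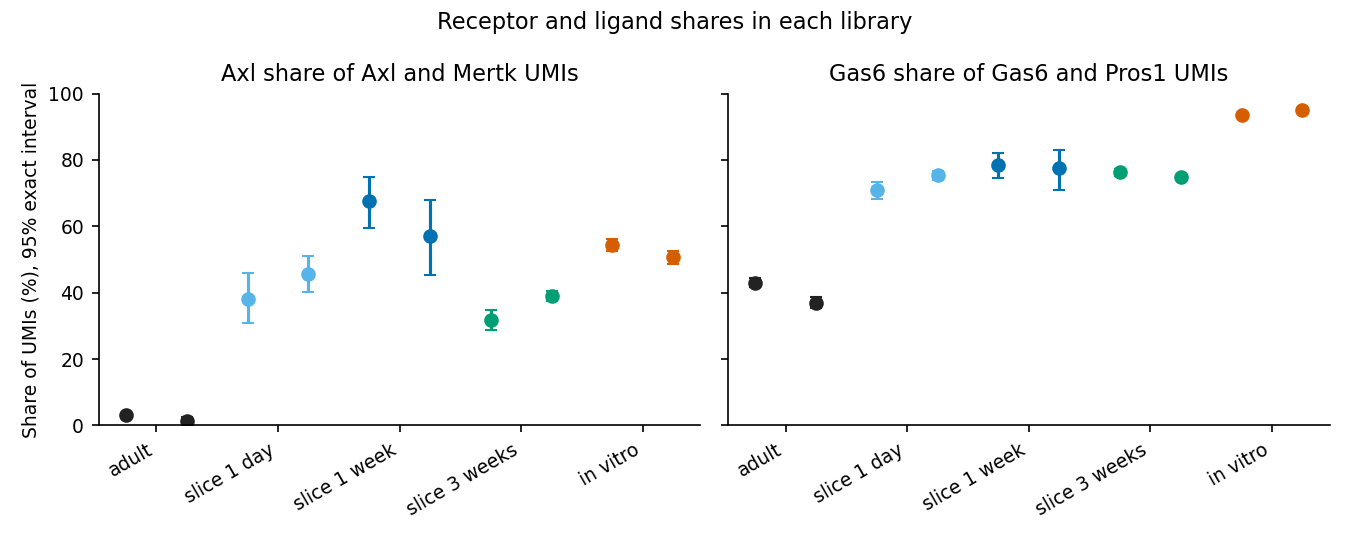
Share of Axl in Axl and Mertk UMIs (left) and of Gas6 in Gas6 and Pros1 UMIs (right), in percent, for each of the 10 libraries with 95% exact binomial intervals as error bars. Adult libraries sit at 1.48% and 3.06% on the left and at 37.0% and 43.1% on the right, below every culture library.

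To see how the UMIs were spread over cells, every cell was thinned to 1800 UMIs and shallower cells were left out (413 of 3799 and 1618 of 3527 in the adult libraries). Axl was then found in 0.620% and 0.471% of adult cells, 3.46% and 1.78% in slice 1 day, 15.1% and 19.2% in slice 1 week, 6.73% and 11.9% in slice 3 weeks, and 7.74% and 5.85% in vitro. Without thinning, the shares were 1.53% and 0.397% in adult and 20.2% to 39.3% in slice 1 week, slice 3 weeks and in vitro. In thinned neutrophil-like cells of slice 1 day, which should lack most of these transcripts, Axl was found in 0 of 153 cells, which allows a share of up to 1.96%, Mertk also in 0 of 153, Gas6 in 9 of 153 (5.88%) and Pros1 in 2 of 153 (1.31%). In those of slice 1 week, Axl was found in 2 of 24 (8.33%, 95% exact interval 1.03 to 27.0), Mertk in 0 of 24, which allows up to 12.5%, and Gas6 and Pros1 in 1 of 24 each (4.17%). The Axl share in slice 1 day replicate 2 thus lay under the limit of its background, and both shares in slice 1 week lay within the interval of theirs. In slice 1 week replicate 1, the summed neutrophil-like cells held 49.4 CPM of Axl (7 UMIs) against 105.4 CPM in the other cells. Neutrophil-like cells had a median of 3705 UMIs against 4835 in all others. The adult, in vitro and slice 3 weeks libraries held no such cells, so no background was measured in them, and the adult shares are not read as expression.

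Mertk was found in 25.7% and 20.8% of thinned adult cells, 4.07% and 3.06% in slice 1 day, 6.47% and 7.69% in slice 1 week, 13.3% and 19.8% in slice 3 weeks, and 6.25% and 5.56% in vitro. Pros1 was found in 40.0% and 47.4% in adult, 14.4% and 12.6% in slice 1 day, 16.5% and 15.4% in slice 1 week, 28.6% and 23.6% in slice 3 weeks, and 5.25% and 4.14% in vitro. For both genes the adult libraries had the highest shares of cells with a UMI. No background was measured in the adult, slice 3 weeks and in vitro libraries, so shares of cells there are not read as expression. In slice 1 day the shares lay above the background of neutrophil-like cells, but in slice 1 week those of Mertk lay under its limit of 12.5% and those of Pros1 within its interval (0.105 to 21.1), so neither share is read as expression there. Gas6 was found in 32.0% and 30.5% of adult cells, 29.1% and 31.5% in slice 1 day, 32.4% and 34.6% in slice 1 week, 64.9% and 50.01% in slice 3 weeks, and 41.6% and 44.97% in vitro. Cells with at least 3 Gas6 UMIs after thinning were 1.18% and 1.26% in adult but 8.19% and 10.6% in vitro and 13.4% and 8.24% in slice 3 weeks.

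Few cells held UMIs of both receptors. In adult, 25.5% and 20.6% of thinned cells had Mertk without Axl, 0.502% and 0.314% had Axl without Mertk, and 0.118% and 0.157% had both. In slice 3 weeks the Mertk-only share was 12.3% and 16.9%, the Axl-only share 5.75% and 8.9997%, and the share with both 0.973% and 2.90%. In slice 1 week 12.2% and 13.5% were Axl-only and 3.597% and 1.92% Mertk-only, from 139 and 52 cells, and since both lay within the background of neutrophil-like cells no order is read from them. For the ligands, Gas6-only cells went from 19.1% and 15.6% in adult to 39.7% and 42.9% in vitro, and Pros1-only cells from 27.1% and 32.5% to 3.35% and 2.09%. At 1800 UMIs a cell, most cells without a UMI of a gene cannot be told from cells that express it weakly. No background was measured in the adult, slice 3 weeks and in vitro libraries. Whether both genes of a pair met in a cell more or less often than their single shares give was not tested.

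**Figure D4:**
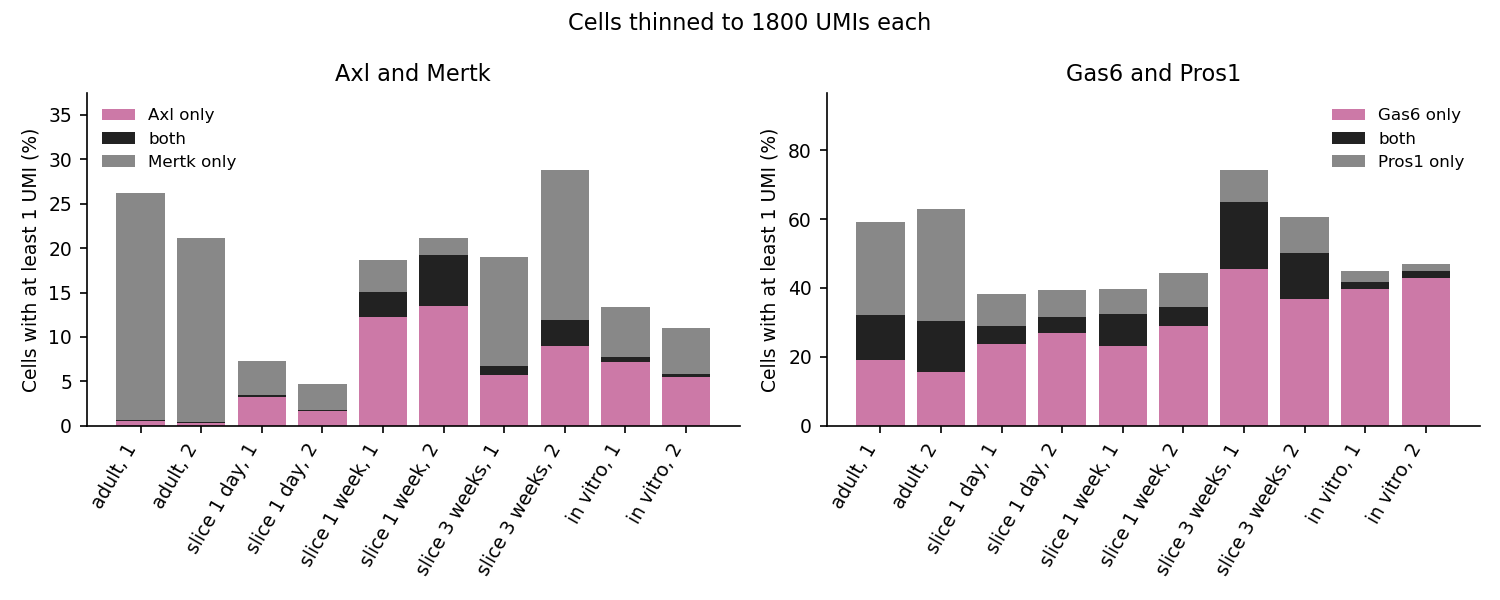
Stacked bars of the percentage of cells, thinned to 1800 UMIs, with at least 1 UMI of only the first gene, both genes or only the second gene, for Axl and Mertk (left) and Gas6 and Pros1 (right), 1 bar per library. Mertk-only cells make up nearly the whole adult bars on the left, and the Pros1-only part is smallest in vitro on the right (3.35% and 2.09%).

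Within libraries, the genes were compared between classes of cells and the other cells of the same library, in thinned cells and with at least 20 cells on both sides. Classes were cells with at least 3 UMIs of interferon-induced genes (9 genes, among them Ifit3 and Isg15), of cell cycle genes (11, among them Mki67), or of disease-associated genes (6, among them Spp1 and Gpnmb), and cells with at least 2 UMIs of P2ry12, a microglial receptor for ADP. Over 16 comparisons, none passed the adjusted threshold of the two-sided exact sign-flip permutation test over libraries (smallest adjusted p = 0.333, and 0.0833 over the alternatives), and with 5 to 8 libraries the smallest raw p possible was between 0.00781 and 0.0625. In interferon cells, Axl had a mean log2 difference of 1.16 ± 1.504 (SD, n = 6 libraries) and was higher in 5 of 6 (exact permutation p = 0.125, adjusted p = 0.400), from −1.23 in in vitro replicate 2 to 3.31 in adult replicate 1. Without adult replicate 1 the mean was 0.74 (exact permutation test, adjusted p = 0.667). The UMIs behind it were few, 33 in all, and in adult replicate 1 there were 6 in 47 interferon cells (70.9 CPM) against 16 in its 3339 other cells (2.66 CPM). In cycling cells, Pros1 was lower in 6 of 6 libraries (−0.44 ± 0.52, exact permutation p = 0.0313, the smallest possible, adjusted p = 0.333), and Axl was lower in 5 of 6 (−0.82 ± 0.89, adjusted p = 0.333). Gas6 was lower in interferon cells of 5 of 6 libraries (−0.54 ± 0.61, adjusted p = 0.333), and Pros1 was higher in P2ry12 cells of 4 of 5 libraries (0.95 ± 0.95, adjusted p = 0.400). The Pros1 value in cycling cells changed sign at 3000 UMIs a cell. At that depth Axl, Gas6 and Pros1 were each higher in P2ry12 cells of 7 of 7 libraries and Mertk in 6 of 7 (means 0.43, 0.32, 0.99 and 0.92, exact permutation test, adjusted p = 0.0833 each), against means of 0.063, −0.015, 0.95 and 0.28 at 1800 UMIs. The latter means came from 5 libraries, and the cells differed as well. Adult replicate 2 had 1909 cells at 1800 UMIs and 193 at 3000, so these means do not show the effect of depth alone.

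The 4 genes work among others, and 101 further genes of dead cell uptake were listed by role, of which 88 could be tested. In vitro, 29 of the 88 were called higher and 24 lower than in adult (60.2% called, against 50.8% of all tested genes). In slice 1 day it was 24 higher and 33 lower (64.8% against 50.2%), in slice 1 week 18 and 18 (40.9% against 28.6%), and in slice 3 weeks 20 and 16 (40.9% against 35.4%). Without slice 1 week replicate 1, the slice 1 week counts were 9 and 6. These comparisons share the adult libraries. Their median log2 fold changes were −0.05, −0.13, 0.01 and 0.10, against −0.11, −0.06, −0.08 and −0.03 for all tested genes, and with the 5 genes that had no adult UMI set to their lower bound they were −0.05, −0.13, 0 and 0.06. In vitro the count called lower was 37 with scaling by library size alone, which moved the median of all genes by −0.30.

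In the machinery of TAM signalling, which was counted without the 4 genes themselves, 3 of 9 tested genes were called higher and 3 lower in vitro (median log2 fold change −0.08), and 1 and 1 in slice 3 weeks (median 0.28). Over all tested genes, 22.4% were called higher and 28.5% lower in vitro, and 17.9% and 17.5% in slice 3 weeks. Ggcx, the carboxylase that modifies the ligands so that they can bind phosphatidylserine, fell by 1.56 ± 0.22 on the log2 scale in vitro (SE, adjusted p = 1.59e-04) and fell by 1.57 ± 0.23 in slice 3 weeks (adjusted p = 4.58e-04). Lgals3, a galectin described as a further ligand of Mertk, rose by 8.92 ± 0.59 in vitro (adjusted p = 9.14e-07) and by 7.99 ± 0.57 in slice 3 weeks (adjusted p = 6.68e-06). The adaptor Grb2 was higher by 0.78 ± 0.21 in vitro (adjusted p = 0.00853) and was not called in any slice group against adult. Adam10 and Adam17, the proteases that shed the receptors, were both called higher in slice 3 weeks than in slice 1 day, by 1.40 and 0.79 on the log2 scale. They were chosen after their values were seen. In that comparison, 3 of the 9 tested genes of this list were called higher and 0 lower (median −0.02). Over all tested genes, 13.9% were called higher and 12.8% lower there. Of the genes for TAM feedback on cytokine signalling, 0 of 6 were called higher and 2 lower in vitro (median −0.68), and 0 and 1 in slice 3 weeks (median −0.09). Socs1, a cytokine signalling suppressor, fell by 3.04 ± 0.45 in vitro (adjusted p = 2.32e-04) and fell by 2.11 ± 0.46 in slice 3 weeks (adjusted p = 0.00485). Its relative Socs3 fell by 1.97 ± 0.23 in vitro (adjusted p = 4.23e-05), rose by 1.35 ± 0.22 in slice 1 day (adjusted p = 5.37e-04) and was at 0.16 ± 0.22 in slice 3 weeks (adjusted p = 0.607).

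Among other uptake receptors and bridges, 8 of 21 tested genes were called higher and 7 lower in vitro (median −0.08), and 7 and 2 in slice 3 weeks (median 0.59), where all genes gave 22.4% and 28.5% in vitro and 17.9% and 17.5% in slice 3 weeks. Cd36, a scavenger receptor, had 7 UMIs over the adult libraries and rose by 9.45 ± 0.32 in vitro (SE, adjusted p = 2.46e-08) and by 4.85 ± 0.34 in slice 3 weeks (adjusted p = 6.21e-06). Cd93 had no adult UMI and was at least 659-fold higher in vitro, 26.6-fold in slice 1 day, 61.1-fold in slice 1 week and 15.5-fold in slice 3 weeks, taking 3 counts over both adult libraries as the limit. Stab2, a phosphatidylserine receptor, also had none and was at least 25.4-fold higher in vitro. These bounds pool both libraries of a culture, so the larger weighs more (22332658 against 7819156 UMIs in slice 3 weeks). Genes were named for the largest change, and those named here all rose in vitro, although 7 of 21 were called lower there. Border-macrophage-like cells made up 16.8% and 15.4% of the in vitro libraries, and without them these held 99.8 and 102.2 CPM of Cd93 and 3.94 and 3.87 of Stab2, against 0 in adult, both still called. Find-me receptors, which sense signals released by dying cells, had 3 of 6 called higher and 2 lower in vitro (median 0.58) and 2 and 2 in slice 3 weeks (median −0.13). P2ry12 fell by 7.08 ± 0.37 in vitro (adjusted p = 2.16e-07) and fell by 2.95 ± 0.30 in slice 3 weeks (adjusted p = 5.98e-05), whereas the ATP receptor P2ry2, with 8 adult UMIs, rose by 2.94 ± 0.64 (adjusted p = 0.00268) and 3.83 ± 0.63 (adjusted p = 9.20e-04). For Gpr132 the adult libraries held 2 UMIs, and the ratio to adult was 61.8 in slice 1 day (counting interval 16.6 to 518), 26.2 in slice 1 week (3.75 to 289) and 5.73 in vitro (1.495 to 48.8). The slice 1 week ratio rested on 1 library (3.95 and 0 CPM). Neutrophil markers summed to 7762 to 22520 CPM in slice 1 day and 955 to 40352 in slice 1 week, against at most 8.39 in the other groups. Without cells over 5% neutrophil markers, Gpr132 was at 6.55 and 6.59 CPM in slice 1 day, still called, and at 2.13 (2 UMIs) and 0 in slice 1 week, where the call was lost (adjusted p = 0.109). In slice 3 weeks, from all cells, 3 UMIs were found, at the limit for a count of 0 (adjusted p = 0.967).

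In engulfment signalling, 5 of 16 tested genes were called higher and 2 lower in vitro (median 0.15), and 3 and 3 in slice 3 weeks (median 0.08). The shares of all genes were 22.4% and 28.5% in vitro and 17.9% and 17.5% in slice 3 weeks, the latter close to 3 of 16. Elmo1, a partner of Dock proteins in Rac activation, fell by 2.33 ± 0.22 in vitro (SE, adjusted p = 9.83e-06) and fell by 1.68 ± 0.21 in slice 3 weeks (adjusted p = 2.04e-04). Vav3, an exchange factor for small GTPases, had no adult UMI and was at least 156-fold higher in vitro and 12.3-fold in slice 3 weeks. These bounds pool both libraries of a culture, so the larger library weighs more. The exchange factor Arhgef7 rose by 1.06 ± 0.20 in vitro (adjusted p = 0.00112) and by 1.67 ± 0.20 in slice 3 weeks (adjusted p = 1.56e-04).

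For corpse digestion and lipid efflux, 9 of 23 tested genes were called higher and 6 lower in vitro (median 0.01), and 5 and 5 in slice 3 weeks (median −0.05), against 22.4% and 28.5% of all genes in vitro and 17.9% and 17.5% in slice 3 weeks. Pparg, a lipid-sensing nuclear receptor, had no adult UMI and was at least 81.4-fold higher in vitro and 36.8-fold in slice 1 day, both called; it had 2 UMIs in slice 1 week and 8 in slice 3 weeks. Nr1h3, which encodes the liver X receptor alpha, rose by 2.70 ± 0.49 in vitro (SE, adjusted p = 8.68e-04) and by 2.98 ± 0.52 in slice 1 day (adjusted p = 7.64e-04), and was at 1.34 ± 1.16 in slice 1 week (adjusted p = 0.423) and −0.53 ± 0.64 in slice 3 weeks (adjusted p = 0.565). Cd5l, a secreted macrophage protein, rose by 6.48 ± 1.11 in vitro (adjusted p = 6.18e-04) and by 3.63 ± 1.31 in slice 1 day (adjusted p = 0.0361). In slice 3 weeks its value of 3.97 ± 1.23 (adjusted p = 0.0261) rested on 1 of 2 libraries, which held 0.885 and 14.6 CPM against 0.366 and 0.515 in adult. Named for the largest change, Pparg, Nr1h3 and Cd5l all rose in vitro, although 6 of 23 were called lower there. Among inhibitory receptors and partners, 1 of 7 was called higher and 2 lower in vitro (median −0.18), and 2 and 2 in slice 3 weeks (median −0.25). Lilrb4a, an inhibitory immunoglobulin-like receptor, rose by 5.47 ± 0.31 in vitro (adjusted p = 3.82e-07) and by 6.21 ± 0.32 in slice 3 weeks (adjusted p = 1.03e-06), while Siglece, a sialic acid receptor, fell by 3.57 ± 0.39 and fell by 3.51 ± 0.41 (adjusted p = 2.97e-05 and 1.15e-04). Lrpap1, a chaperone of the receptor Lrp1, rose by 1.23 ± 0.13 in slice 3 weeks (adjusted p = 5.95e-05) and was at −0.18 ± 0.12 in vitro (adjusted p = 0.251).

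**Figure D5:**
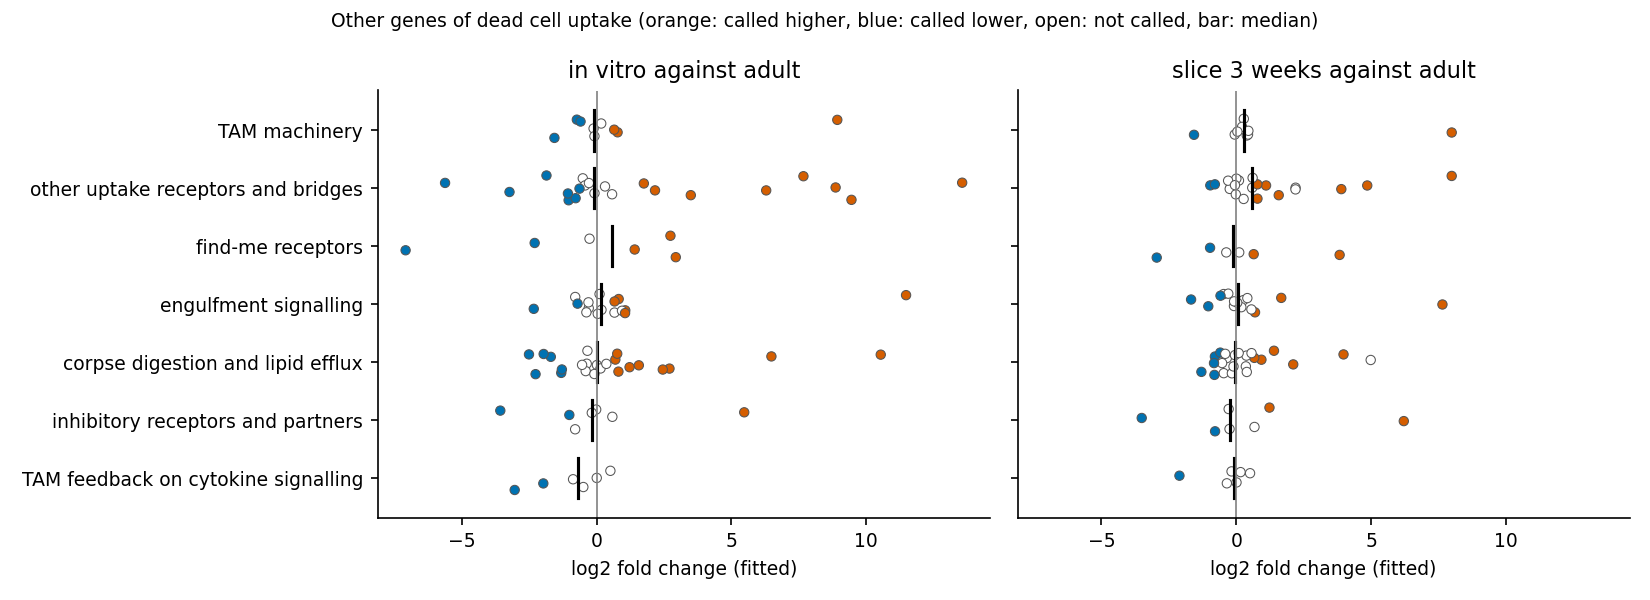
Fitted log2 fold changes of the 88 tested genes of dead cell uptake against adult, by role, in vitro (left) and in slice 3 weeks (right), with 1 point per gene and a black bar at each list's median. Orange points were called higher (29 in vitro, 20 in slice 3 weeks), blue points lower (24 and 16), and values of genes with no adult UMI, such as Cd93 and Vav3, depend on the fit and are no bound.

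The genes whose log2 level over the 10 libraries was most like that of each member, out of 3916 whose log2 CPM averaged 5 or more, were Hebp1 (Pearson's r = 0.967), Eif3f (0.960) and Eef2 (0.952) for Axl. For Mertk they were Gpr108 (0.983), Pnisr (0.977) and Sirpa (0.966), the last a receptor for CD47 and itself a member of the lists above. Gas6 was followed most closely by Prdx4 (0.973), Ctnnb1 (0.947) and Smc1a (0.947), and Pros1 by Mlxipl (0.996), Lair1 (0.988) and Sgce (0.988). These 10 points share their group structure and depth, and the values describe likeness of pattern only.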

How the data were processed

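The authors sequenced sorted microglia as 10 droplet libraries and deposited raw UMI counts per gene symbol and cell barcode, 1 table per library. The submitters' processing notes name Cell Ranger 1.3.0 and the mm10 build. A gene missing from a table was taken as 0, and 13 symbols listed more than once were summed. Barcodes were dropped when mitochondrial genes took over 5% of UMIs, when fewer than 400 genes were detected or when UMIs exceeded 30000 (578 of 19637), and no doublet caller was run. Counts were then summed over the 19059 cells kept, per library, and fitted with edgeR 4.0.16 in R 4.3.3 (TMM factors, filterByExpr, glmQLFit and glmQLFTest) in 1 model of the 5 groups, with adjusted p by Benjamini and Hochberg over 12157 genes. DESeq2 1.42.0 was an alternative. The study calls the libraries of a group independent samples but does not say whether they came from separate cultures or animals, so p-values measure only the spread between these libraries, and 2 against 2 libraries allow no permutation p under 0.333.

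The members and gene lists were chosen with earlier results of these data known. Besides the members and Tyro3, named genes were up to 3 per role list with the largest change among those called in vitro or in slice 3 weeks against adult, and the 3 genes most like each member by Pearson's r of log2(CPM + 1). Adam10 and Adam17 were named outside this rule, after their values were seen. Class differences used a pseudocount of 5 CPM, and the limit for a count of 0 was 3 counts. Alternatives covered scaling, filters, cell types, thinning, study id, DESeq2, a replicate block and leaving out each library. The 5% neutrophil limit, the fit per cell and the removal of cell types for role list genes were added after seeing the data, the first because the planned limit of 0.5% marked 80.4% of slice 1 week replicate 1. The paper reports fewer cells for both of its 1 week slice samples than the 148 and 61 kept here. Domain and residue comparisons of the proteins were not made here. Same-numbered libraries did not deviate together (r from −0.13 to 0.12 over 10 pairs of groups), so the numbers were not taken to pair them.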

Additional observations from a re-analysis of the deposited data

Results flagged for a closer look

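Within groups of 2 libraries no test for a stray library was made. In 10 cases every library of a group showed a higher value of a gene in a class of cells than in its other cells, and every library of another group showed a lower one; none of these differences was tested. The numbers below are differences between the groups' mean log2 differences.

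Gas6 in cycling cells was lower than in other cells in vitro and higher in slice 1 day, a difference of −1.35, and slice 1 day exceeded slice 3 weeks by 1.15. Mertk in cycling cells showed the same arrangement, at −1.21 for in vitro minus slice 1 day and 0.52 for slice 1 day minus slice 3 weeks, but its slice 1 day values rest on 2 and 4 UMIs in cycling cells, about the limit of 3 for a count of 0. Mertk in disease-associated cells was higher than in other cells in slice 1 week and lower in vitro, in slice 1 day and in slice 3 weeks (no adult library had 20 cells on both sides), at −1.11 for in vitro minus slice 1 week, −1.59 for slice 1 day minus slice 1 week and 1.36 for slice 1 week minus slice 3 weeks; the slice 1 week classes held 7 and 4 Mertk UMIs. Pros1 in disease-associated cells was higher in slice 1 day, at −1.53 for in vitro minus slice 1 day and 1.54 for slice 1 day minus slice 3 weeks. Pros1 in interferon cells was higher in vitro and lower in slice 1 day, a difference of 1.38, with 2 UMIs in each slice 1 day library and 5 and 6 in vitro.

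Slice 1 day and slice 1 week were also the groups with neutrophil-like cells. Without cells over 5% neutrophil markers, 4 of the 10 cases remained, all in cycling cells: −1.24 and 1.04 for Gas6 and −1.11 and 0.42 for Mertk. In 4 of the other 6 a library then fell under the minimum of 20 cells, so the pair of libraries was no longer complete: slice 1 week replicate 2 for Mertk in disease-associated cells (3 cases) and slice 1 day replicate 1 for Pros1 in interferon cells. In the remaining 2, Pros1 in disease-associated cells, the slice 1 day replicate 1 value went from 0.23 to −0.12.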

How the results depend on the processing

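Over alternatives other than leaving out a library, the fitted differences of the 4 genes kept their direction and side of the threshold in 514 of 560 values, and on leaving out single libraries in 371 of 400. Axl and Gas6 kept their calls against adult in every alternative run, except that Gas6 in slice 1 day became a call per cell. The cause of each change below was not tested unless the setting itself removed libraries, genes or UMIs. With the replicate block all 40 fitted differences stayed on their side (Axl in vitro against adult 3.56), and genes called in that comparison numbered 2684 higher and 3398 lower, against 2719 and 3461.

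As UMIs per cell, log2 values that lost, gained or turned a call were 0.26 in vitro, 0.12 in slice 1 week and 0.67 in slice 3 weeks (all against adult) and 1.35, 0.14 and −0.41 in vitro (against slice 1 day, 1 week and 3 weeks) for Mertk; −0.078, −0.19 and 0.50 (slices of 1 day, 1 week and 3 weeks against adult), −0.11 (1 week against 1 day), 0.57 and 0.68 (3 weeks against 1 day and 1 week) and −0.85 (in vitro against slice 1 week) for Pros1; 1.93 (slice 1 day against adult), 0.75 (3 weeks against 1 day), 1.36 and 0.85 (in vitro against slice 1 week and 3 weeks) for Gas6; and −0.43 and 0.57 (in vitro against slice 1 week and 3 weeks) for Axl. With only the 8 libraries of the second study id, Mertk was at 0.72 in vitro against slice 1 day and, against adult, at −0.92 (slice 1 week) and 0.093 (slice 3 weeks), Axl at −0.98 and Gas6 at 0.040 in vitro against slice 3 weeks, Gas6 at 0.60 for slice 1 week against 1 day and Pros1 at 0.60 for slice 3 weeks against 1 week; the culture minus adult differences in share were 48.8 and 43.7 percentage points (exact permutation p = 0.25, the smallest possible). With no filter on low counts, slice 3 weeks against 1 week gave −0.72 for Axl, 0.69 for Gas6 and 0.83 for Mertk, in vitro gave 0.59 for Gas6 against slice 1 week and 0.85 for Mertk against slice 1 day, and Pros1 in slice 3 weeks against adult was −0.57. That last value was −0.56 with upper quartile scaling and −0.58 without border-macrophage-like cells, where Axl in vitro against slice 1 week was −1.32. Gas6 in slice 1 week against 1 day became a call at 0.68 with upper quartile scaling, 0.62 with DESeq2 and 0.61 with study id as covariate, DESeq2 gave 0.72 for Mertk in vitro against slice 1 day, and the covariate gave 0.73 for Pros1 in slice 3 weeks against 1 week. With the 0.5% limit on neutrophil markers, Mertk in slice 1 week against adult was −0.99 and Pros1 in slice 3 weeks against 1 week 0.64. Thinned to 1800 UMIs, Axl in vitro against slice 1 week was −1.14, Mertk 0.89 (in vitro against slice 1 day) and 1.03 (slice 1 week against 1 day), Pros1 0.91 (slice 3 weeks against 1 week), and 11 rather than 18 uptake genes were called higher in slice 1 week. Library size alone called 37 rather than 24 uptake genes lower in vitro.

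Leaving out single libraries, where the lone library left in a group was assumed to vary like the other groups, gave, for slice 1 week against adult, −1.46 to −0.61 for Mertk, and for slice 3 weeks against adult −0.78 to −0.42 for Pros1. In vitro gave −0.89 to 0.18 (Axl) and −0.35 to 0.12 (Gas6) against slice 3 weeks, 1.13 to 1.68 (Axl) and 0.49 to 0.98 (Mertk) against slice 1 day, and −1.56 to −1.02 (Axl) against slice 1 week. Slice 3 weeks gave 1.25 to 2.33 (Axl) against 1 day, and 0.38 to 0.85 (Gas6) and 0.64 to 0.99 (Pros1) against 1 week, and slice 1 week gave 2.61 to 2.81 (Axl) and 1.08 to 1.93 (Mertk) against 1 day. Uptake genes called in slice 1 week ran from 9 to 19 higher and 6 to 20 lower, lowest without slice 1 week replicate 1. The share differences ran from 43.0 to 48.1 and from 37.1 to 43.1 percentage points (exact permutation p from 0.0556 to 0.222, each the smallest possible).

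Of the class differences, none of which passed the test, signs turned with a threshold 1 UMI higher (Axl −0.28 in P2ry12 cells and −0.10 in disease-associated cells, Gas6 0.16 in P2ry12 cells), at 3000 UMIs (Axl −0.16 and Pros1 −0.25 in disease-associated cells, Gas6 0.32 in P2ry12 cells, Pros1 0.10 in cycling cells), with 8 libraries (Axl −0.0015 in disease-associated cells, Gas6 0.049 and Mertk −0.012 in P2ry12 cells) and without neutrophil-like cells (Pros1 0.040 in interferon cells, where slice 1 day replicate 1 fell under 20 cells). Without single libraries they ran from −0.36 to 0.69 (Axl), −0.16 to 0.10 (Gas6) and −0.19 to 1.12 (Mertk) in P2ry12 cells, −0.12 to 0.23 (Axl) in disease-associated cells and −0.23 to 0.12 (Pros1) in interferon cells. The slice 1 week libraries, with 385373 and 1080763 UMIs, limit what can be told of that group.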
